A study of Mus musculus with 4 samples.

Results

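Imprinted genes are transcribed mainly from the copy inherited from 1 parent, and 35 imprinted mouse genes that lie outside the Dlk1-Dio3 region of chromosome 12 were followed in mouse embryonic fibroblasts (MEFs). The genes were taken by symbol from the raw count table, and all 35 were found among its 55487 genes. Of these, 14 are known as expressed from the maternal allele and 20 from the paternal allele, while for Gnas the allele depends on the transcript. They lie on 8 chromosomes, with 16 on chromosome 7 and 7 on chromosome 6. MEFs were wild-type primary cells from C57BL/6J embryos, given as passage 2 in the sample labels and as passage 3 in the paper. The control group was left without added protein, and the PEDF group received 100 ng/mL of pigment epithelium-derived factor, a secreted protein of the serpin family purified from mammalian cells, for 24 h. Each of experiments 1 and 2 gave 1 control and 1 PEDF library, and the submitters' design text has the cells of each experiment made from different embryos. This was read as 1 MEF preparation per experiment, shared by its control and PEDF library, and the blocked values rest on that reading. Both parental alleles come from the same strain and the counts sum them, so the allele classes are background knowledge and were not measured here. Some of the genes, such as Cd81, Ascl2 and Tfpi2, are known as imprinted mainly in the placenta.

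Imprinting rests on DNA methylation marks that are set in the egg or sperm and kept through the divisions of the embryo. Most imprinted genes sit in clusters, where a control region methylated on 1 parental copy governs several genes, often through a long non-coding RNA or through insulation by CTCF. Many of the products act on fetal growth: IGF2 promotes it, IGF2R takes IGF2 out of circulation, and CDKN1C and GRB10 restrain it. Several of these genes belong to a network of imprinted genes that is strongly expressed in embryonic mesenchyme and declines after birth.

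The libraries held 14722848 to 18144640 counts, with a count on 22135 to 22647 genes. Within a gene, libraries were compared as CPM, the counts divided by the TMM-scaled library size and multiplied by 1000000. Levels between genes are given as the deposited TPM, which are also divided by gene length. Where a library shows 0 for a gene, up to 3 counts (0.168 to 0.203 CPM) are still allowed by counting error, the only error this limit covers. The 8 fibroblast markers, among them the collagen genes Col1a1, Col1a2 and Col3a1, summed to 14470 and 17340 TPM in the control libraries and to 13030 and 14810 TPM in the PEDF libraries. This sum was lower with PEDF in both experiments. The 6 skeletal muscle markers summed to 433 and 540 TPM in control and 489 and 614 TPM in PEDF-treated MEFs, and this sum was higher with PEDF in both experiments. Of the 6, 4 were higher in both experiments, beside 30.1% of all genes, and Ttn was lower in both. The 6 macrophage markers summed to 223 and 135 TPM in control and 226 and 189 TPM in PEDF-treated MEFs of experiments 1 and 2, also higher with PEDF in both. Control and PEDF-treated MEFs held 72.5 to 90.8 and 73.9 to 86.4 TPM of the 6 epithelial markers and 103 to 123 and 115 to 119 TPM of the 6 neuronal markers. The endothelial markers summed to 7.01 to 7.02 and 6.83 to 7.24 TPM with Tie1 at 0, and the germ cell markers to 3.11 to 3.79 and 1.62 to 3.73 TPM with Tex101 at 0. With the experiment as a block, the fibroblast genes Col1a1 (log2 fold change -0.24, adjusted p = 6.56e-10 in edgeR), Col1a2 and Pdgfrb were lower and Dcn was higher with PEDF, and the muscle genes Actc1 and Des and the macrophage gene Lyz2 were higher. None of the cell type markers passed without the block. Col1a2 (adjusted p = 0.753) and Des (adjusted p = 0.115) did not pass with the length correction, while the others did. The part of these markers in the results below was not tested. In bulk RNA, fewer cells of a type and less RNA per cell cannot be told apart.

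H19, the maternally expressed long non-coding RNA, was by far the most abundant of the 35 genes, at a mean of 11960 TPM. It ranked 5 among all genes by mean TPM and took up to 1.12% of a library. The next 6 genes lay between 274 and 426 TPM: Cd81 (426), Grb10 (417), Mest (389), Cdkn1c (370), Igf2r (308) and Gnas (274). Mest is the paternally expressed gene among them. The paternally expressed Peg3 (139 TPM) and Igf2 (110 TPM) followed, then Ndn (96.4), Plagl1 (88.8), Nnat (83.7) and Peg10 (65.6). Above 100 TPM were thus 5 maternally expressed genes, 3 paternally expressed genes and Gnas. The class medians were nevertheless close, at 12 TPM for the 14 maternally expressed and 13.2 TPM for the 20 paternally expressed genes. The maternally expressed genes summed to 12953 to 13846 TPM per library, of which H19 alone made 11390 to 12290 TPM. The paternally expressed genes summed to 1057 to 1108 TPM. At the low end were Magel2 (0.976 TPM), Ascl2 (0.411 TPM) and Kcnq1ot1 (0.126 TPM).

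The order of levels was set apart from the spread between libraries only in steps. Of the 33 pairs of neighbours in the order of mean TPM, 23 had overlapping ranges over the 4 libraries and 10 did not. The gaps included those below H19, below Gnas, below Peg3 and on both sides of Impact, a paternally expressed regulator of translation at 44.7 to 49.5 TPM. Cd81, Grb10, Mest, Cdkn1c, Igf2r and Gnas formed a run in which each neighbouring pair overlapped. These ranges cover the spread between libraries alone. The gap below Peg3 is to Igf2, whose level leaves out reads shared with an overlapping gene, so the order of these genes was not settled.

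**Figure D1:**
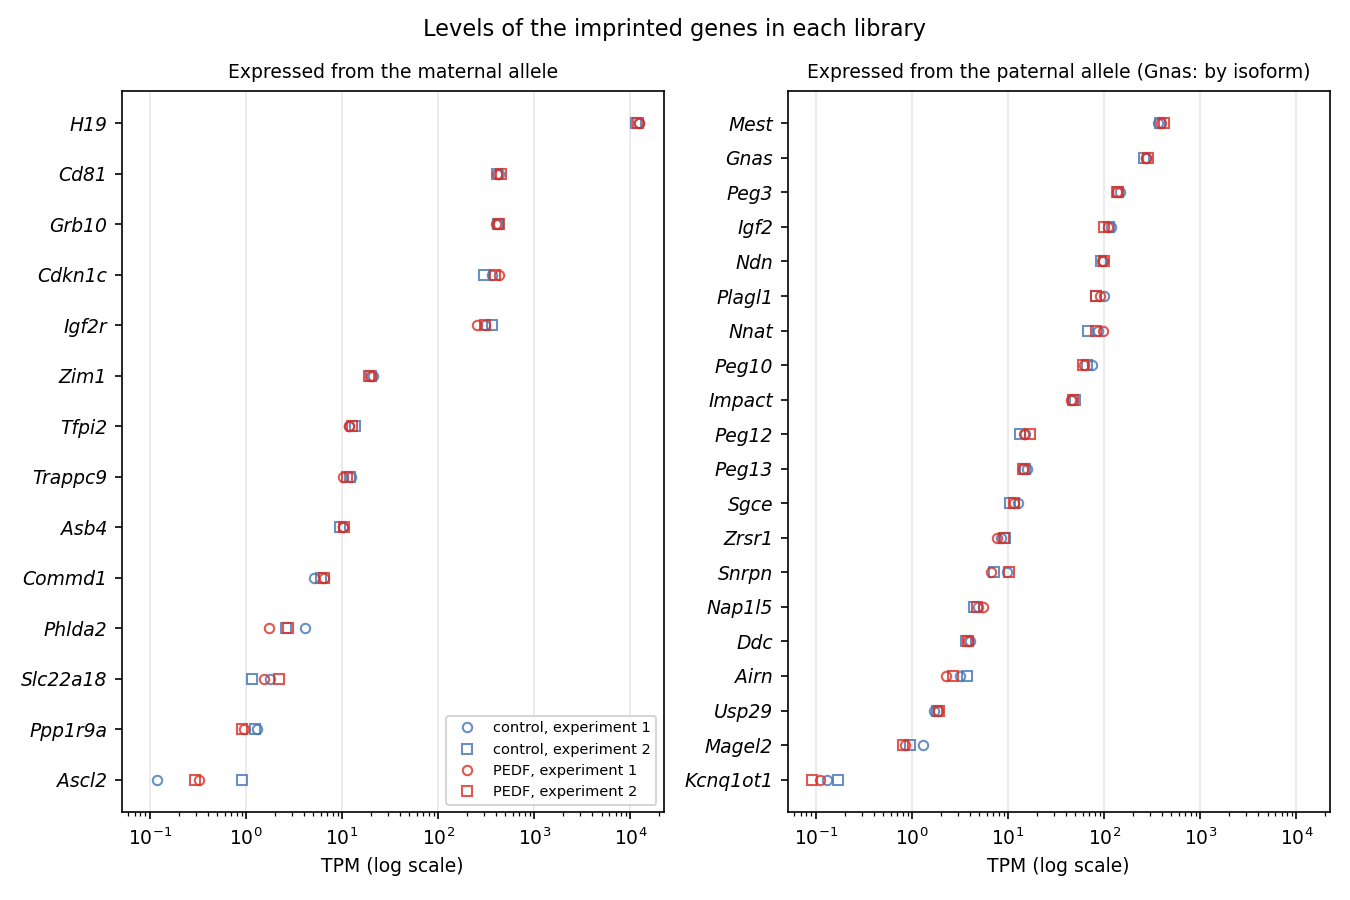
Levels of the 34 genes with a count, as TPM on a log axis, with maternally expressed genes in the left panel and paternally expressed genes and Gnas in the right panel. Each symbol is 1 library (circles, experiment 1, squares, experiment 2, blue, control, red, PEDF). H19 stands alone at 11390 TPM or more, and 8 further genes lie above 100 TPM in the mean, of which Igf2 was at 98.6 TPM in the PEDF library of experiment 2.

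PEDF was compared with control to ask which transcripts respond to this protein, which the study proposes as a muscle-derived inhibitor of cellular senescence. Without a term for the experiment, none of the 34 tested imprinted genes passed an adjusted p of 0.05 in edgeR, where 0.00516% of all 19384 genes tested did. At an unadjusted p under 0.05 there were 6 imprinted genes (Cdkn1c, Igf2r, Mest, Peg10, Ppp1r9a and Kcnq1ot1), beside 6.88% of all genes. DESeq2 and limma on log2(TPM + 1) also called none of the 34, and at an unadjusted p under 0.05 DESeq2 had 3, beside 1.46% of all genes, and limma 0, beside 5.05%. With the experiment as a block, which takes the difference between MEF preparations out of the spread, 5 of the 34 passed, where 3.75% of all genes did. Cdkn1c, Mest and Nnat were higher with PEDF, and Igf2r and Peg10 were lower. With a correction for gene length added to the block, 3 of the 34 passed (Cdkn1c and Gnas higher, Igf2r lower), where 2.21% of all genes did. The block leaves few degrees of freedom for the spread of a single gene. Small p-values with it therefore rest mostly on a spread pooled over all genes, not on that of the gene itself. The libraries of an experiment were taken to share their embryos, so p-values apply to these 4 libraries alone.

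The group as a whole did not lean to either side. In the comparison without the block, 17 of 34 had a higher and 17 a lower estimate, and the median log2 fold change was -0.004, beside 0.001 over all genes. The median was -0.02 for maternally expressed genes, with 7 higher and 7 lower, and -0.02 for paternally expressed genes, with 9 higher and 10 lower. Both PEDF libraries lay above both control libraries for 7 of the 34 (Cdkn1c, Mest, Usp29, Ndn, Peg12, Gnas and Commd1), beside 18.9% of all genes. Both lay below for 7 (Igf2r, Airn, Kcnq1ot1, Peg10, Ppp1r9a, Magel2 and Trappc9), beside 18.4% of all genes. Within the experiments, 11 were higher with PEDF in both, beside 30.1% of all genes, 12 were lower in both, beside 28.8%, and 11 moved in opposite directions. With 1 library a side, the ratios within an experiment have no test.

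**Figure D2:**
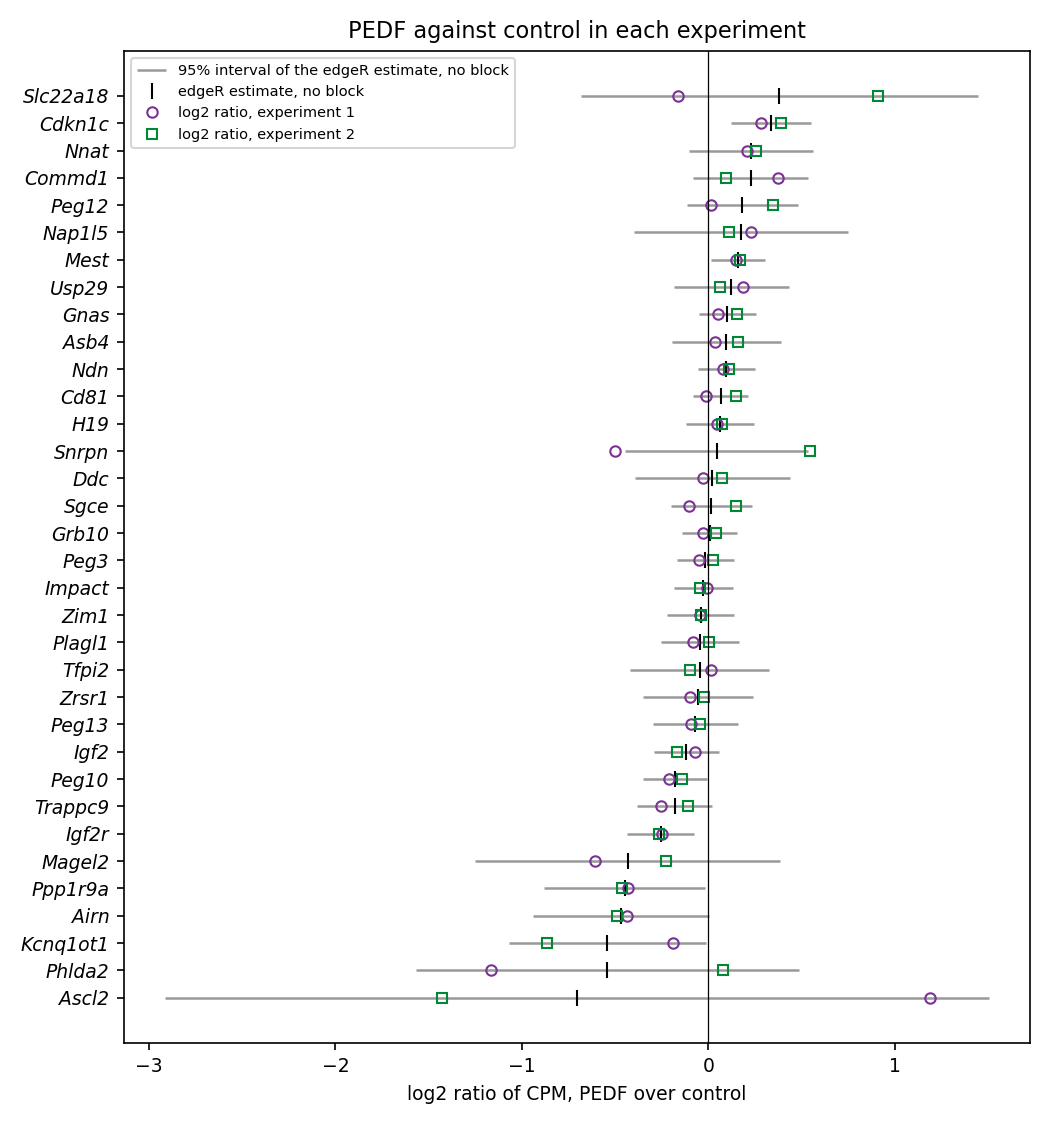
Log2 ratio of CPM, PEDF over control, for the 34 genes with a count. Open circles are experiment 1, open squares experiment 2, vertical ticks the edgeR estimate without the block and grey lines its 95% interval. Cdkn1c (0.29 and 0.39) and Igf2r (-0.25 and -0.26) were displaced to the same side in both experiments, while Snrpn, Phlda2, Slc22a18 and Ascl2 had ratios on opposite sides of 0.

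Cdkn1c is a maternally expressed inhibitor of cyclin-dependent kinases in the Kcnq1ot1 cluster (chromosome 7, 143458339 to 143461050, minus strand, GRCm38). It was measured at 261 and 211 CPM in the control libraries of experiments 1 and 2 and at 318 and 277 CPM in the PEDF libraries. Both PEDF libraries thus lay above both controls, and experiment 1 was the higher in each group. The group means were 236 ± 35.01 CPM in control and 298 ± 28.7 CPM with PEDF (SD, n = 2). The difference was 1.26-fold, a log2 fold change of 0.33 ± 0.10 (SE) with an adjusted p of 0.695 without the block in edgeR. With the block it was 0.34 ± 0.05 with an adjusted p of 2.7e-10, and 0.28 with an adjusted p of 6.72e-07 after the length correction. DESeq2 with the block also called it (adjusted p = 0.00034). With genes of low count kept, Cdkn1c passed with no block (adjusted p = 0.00382 in edgeR). With a library left out and no block, the log2 fold change was 0.49 without control replicate 1 and 0.43 without PEDF replicate 2. It was 0.23 and 0.19 without PEDF replicate 1 and control replicate 2. Such fits leave 1 library in a group, so the difference between experiments enters the PEDF difference of Cdkn1c. An annotated transcript on the opposite strand, Gm44732, covers 30.7% of its exon bases and held 48.5% to 52.6% as many counts as Cdkn1c in each library. Gm44732 was higher with PEDF as well (0.30 ± 0.05, adjusted p = 3.67e-06 with the block in edgeR). The strand setting of the counting is not given in the sources used here. Genes on the opposite strand inside H19 exons (Gm27483 and Gm27786) held many counts. Mir675, on the same strand, held none, but all of its 84 bases are shared with an H19 exon. Reads there could not be given to either gene, so that 0 is no comparison of the strands. Whether the counts of Gm44732 come from RNA of its own was not tested.

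The other genes of that cluster were low or even. Kcnq1ot1, the paternally expressed non-coding RNA that silences the cluster in cis (143203458 to 143296549, minus strand), had 64 and 97 counts in control and 59 and 53 counts with PEDF. These were 4.34 and 5.44 CPM in control and 3.80 and 2.97 CPM with PEDF, without overlap between the groups. Its log2 fold change was -0.54 ± 0.25 (adjusted p = 0.719 without and 0.205 with the block in edgeR) and shrank to -0.23 with the length correction. Kcnq1ot1 is annotated as 1 unspliced exon and had the greatest summed exon length of the genes (93092 bases). Cd81, which encodes a membrane protein of the tetraspanin family, was at 437 and 409 CPM in control and 433 and 453 CPM with PEDF (0.07 ± 0.07, adjusted p = 0.876 in edgeR). Its groups overlapped. Phlda2, a restraint on placental growth, Slc22a18, a membrane transporter, and Ascl2, a transcription factor of the trophoblast, held 72, 66 and 16 counts over the 4 libraries. None passed, and the 95% intervals of their log2 fold changes ran from -1.57 to 0.48, from -0.68 to 1.44 and from -2.91 to 1.503, so differences within them were not detectable at this depth. The TPM of Cdkn1c was 1770 to 4260 times that of Kcnq1ot1 in the same library.

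Igf2r encodes the maternally expressed receptor that carries IGF2 and lysosomal enzymes to the lysosome (chromosome 17, 12682406 to 12769664, minus strand). It was at 1020 and 1178 CPM in control and 859 and 981 CPM with PEDF. Both PEDF libraries were below both controls, and experiment 2 was the higher in each group. The means were 1099 ± 112 CPM in control and 920 ± 86.2 CPM with PEDF (SD, n = 2). The log2 fold change was -0.26 ± 0.09, or 1.19-fold lower, with an adjusted p of 0.695 without the block in edgeR. The block gave -0.26 ± 0.04 with an adjusted p of 2.43e-07, and the length correction -0.20 with an adjusted p of 0.000206. DESeq2 with the block called it too (adjusted p = 9.08e-05). With a library left out and no block, the log2 fold change was -0.36 without control replicate 1 and -0.35 without PEDF replicate 2. It was -0.17 and -0.15 without PEDF replicate 1 and control replicate 2. The difference between experiments enters these values as well. Airn is the paternally expressed antisense RNA that silences the paternal Igf2r, and it starts in an intron of Igf2r on the plus strand (12741311 to 12860136). It had 76 and 107 counts in control and 59 and 76 counts with PEDF, which were 5.15 and 5.997 CPM against 3.80 and 4.26 CPM. The Airn groups did not overlap either, but its log2 fold change of -0.47 ± 0.22 did not pass (adjusted p = 0.719 without and 0.259 with the block in edgeR). Igf2r and Airn share no exon bases, and the TPM of Igf2r was 97.6 to 114 times that of Airn.

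The start of Igf2r is shown with those of Mest and Nnat because these are the genes called with the block whose start windows were found in the RefSeq table (GRCm38.p6), from 250 bases before to 50 after the start. Gnas, called with the length correction, has 4 windows there of 16 to 40 CpG, none of which holds the motif marked below. Cdkn1c and Peg10 were not matched in it, nor were H19, Sgce, Impact, Peg13 and Trappc9. Capitals mark TGCCGC on either strand (GCGGCA on the strand shown), the letters that the zinc-finger protein ZFP57 binds when their CpG is methylated. The windows are chr17:12769657-12769956 (minus strand), chr6:30737800-30738099 (plus strand, the second of 3 Mest windows) and chr2:157559828-157560127 (plus strand). The Mest window shown was picked because it holds the motif, and the first of the 3 holds no match.
Igf2r start window: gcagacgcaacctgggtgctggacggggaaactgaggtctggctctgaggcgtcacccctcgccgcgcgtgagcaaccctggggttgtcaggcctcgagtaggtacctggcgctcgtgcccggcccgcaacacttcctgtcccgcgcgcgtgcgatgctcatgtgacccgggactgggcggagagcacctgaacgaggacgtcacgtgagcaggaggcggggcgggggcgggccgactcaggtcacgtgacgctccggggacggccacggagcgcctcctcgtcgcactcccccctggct
Mest start window: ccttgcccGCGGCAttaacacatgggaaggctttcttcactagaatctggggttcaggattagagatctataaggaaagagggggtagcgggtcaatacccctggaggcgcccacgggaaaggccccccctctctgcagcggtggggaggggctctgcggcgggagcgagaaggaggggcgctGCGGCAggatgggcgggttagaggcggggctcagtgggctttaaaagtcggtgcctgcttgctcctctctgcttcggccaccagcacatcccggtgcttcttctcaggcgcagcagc
Nnat start window: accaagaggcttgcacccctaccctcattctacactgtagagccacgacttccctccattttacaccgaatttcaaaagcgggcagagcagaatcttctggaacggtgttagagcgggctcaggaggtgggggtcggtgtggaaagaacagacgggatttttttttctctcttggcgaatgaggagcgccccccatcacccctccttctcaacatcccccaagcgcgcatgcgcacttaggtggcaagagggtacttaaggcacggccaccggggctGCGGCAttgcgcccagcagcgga
The Igf2r window holds 34 CpG and no match, the Mest window 17 CpG and 2 matches, starting at bases 9 and 184, and the Nnat window 17 CpG and 1 match at base 278. Of the 28 imprinted genes with a window, 10 had a match in at least 1 window (Commd1, Grb10, Igf2, Mest, Nap1l5, Nnat, Plagl1, Snrpn, Snurf and Zim1), where 13.1% of all 27025 genes did. Snrpn and Snurf share that window. The median was 12 CpG in the 46 windows of imprinted genes and 7 CpG in all 32851 windows. The imprinted genes thus had more windows per gene, each a further opening for a match, and 11.6% of all windows held one. A match describes letters only, and binding was not measured.

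Mest, a paternally expressed gene of mesoderm for a hydrolase-like protein of the endoplasmic reticulum (chromosome 6, 30723547 to 30748465, plus strand), was at 507 and 516 CPM in control and 561 and 581 CPM with PEDF. The groups did not overlap, and the ratio was nearly the same in both experiments (0.15 and 0.17). The means were 512 ± 6.55 and 571 ± 13.8 CPM (SD, n = 2). The 1.12-fold difference (0.16 ± 0.07) had an adjusted p of 0.704 without the block in edgeR, 0.0138 with it, 0.0543 with the length correction and 0.106 in DESeq2 with the block. Copg2, a coat protein gene on the opposite strand that shares 912 exon bases with Mest, held 43.0% to 45.4% as many counts. Copg2 was higher with PEDF to a like extent (0.21 ± 0.05, adjusted p = 0.00125 with the block in edgeR). Nnat, the paternally expressed gene for the small membrane protein neuronatin (chromosome 2, 157560078 to 157562522, plus strand), lies in an intron of Blcap. It was at 56.5 and 43.3 CPM in control and 65.2 and 51.7 CPM with PEDF, so the groups overlapped, while PEDF was above control by a like ratio in each experiment (0.21 and 0.25 on the log2 scale). Its log2 fold change of 0.23 ± 0.15 had an adjusted p of 0.781 without the block in edgeR, 0.0335 with it (SE 0.07) and 0.271 with the length correction. DESeq2 with the block gave it an unadjusted p of 0.0901 and no adjusted p. With no block it was 0.05 without control replicate 2 or PEDF replicate 1, 0.43 without control replicate 1 and 0.39 without PEDF replicate 2, and passed in none of these. Blcap was at 47.9 and 48.4 CPM in control and 48.1 and 52.1 CPM with PEDF and did not pass (adjusted p = 0.808 with the block in edgeR).

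The Peg10 cluster on chromosome 6 holds paternally and maternally expressed genes around 1 control region. Peg10, derived from a retrotransposon (4747306 to 4760517, plus strand), was at 175 and 153 CPM in control and 151 and 138 CPM with PEDF. The PEDF libraries lay below the controls, by a narrow margin between PEDF of experiment 1 and control of experiment 2. The log2 fold change of -0.18 ± 0.08 had an adjusted p of 0.713 without the block in edgeR, 0.0217 with it, 0.11 with the length correction and 0.307 in DESeq2 with the block. Without the block it was -0.08 and -0.11 when control replicate 1 and PEDF replicate 2 were left out, and -0.27 without control replicate 2, with no call. Sgce, for epsilon-sarcoglycan, starts next to Peg10 on the opposite strand and is also paternally expressed. It was at 48.2 and 38.8 CPM in control and 44.9 and 42.9 CPM with PEDF, with opposite ratios in the experiments (-0.10 and 0.15, log2 fold change 0.02 ± 0.10, adjusted p = 0.979 in edgeR). The maternally expressed Ppp1r9a, for the actin-binding protein neurabin, was at 6.77 and 6.28 CPM in control and 5.02 and 4.55 CPM with PEDF. Its groups did not overlap, and its log2 fold change of -0.45 ± 0.20 rested on 371 counts (adjusted p = 0.714 without and 0.223 with the block in edgeR). Asb4, for a subunit of a ubiquitin ligase, was at 14.3 and 12.8 CPM in control and 14.7 and 14.3 CPM with PEDF. Tfpi2, for an inhibitor of serine proteases, was at 7.38 and 8.18 CPM in control and 7.46 and 7.63 CPM with PEDF. The groups overlapped for both, with adjusted p of 0.914 and 0.97 in edgeR.

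**Figure D3:**
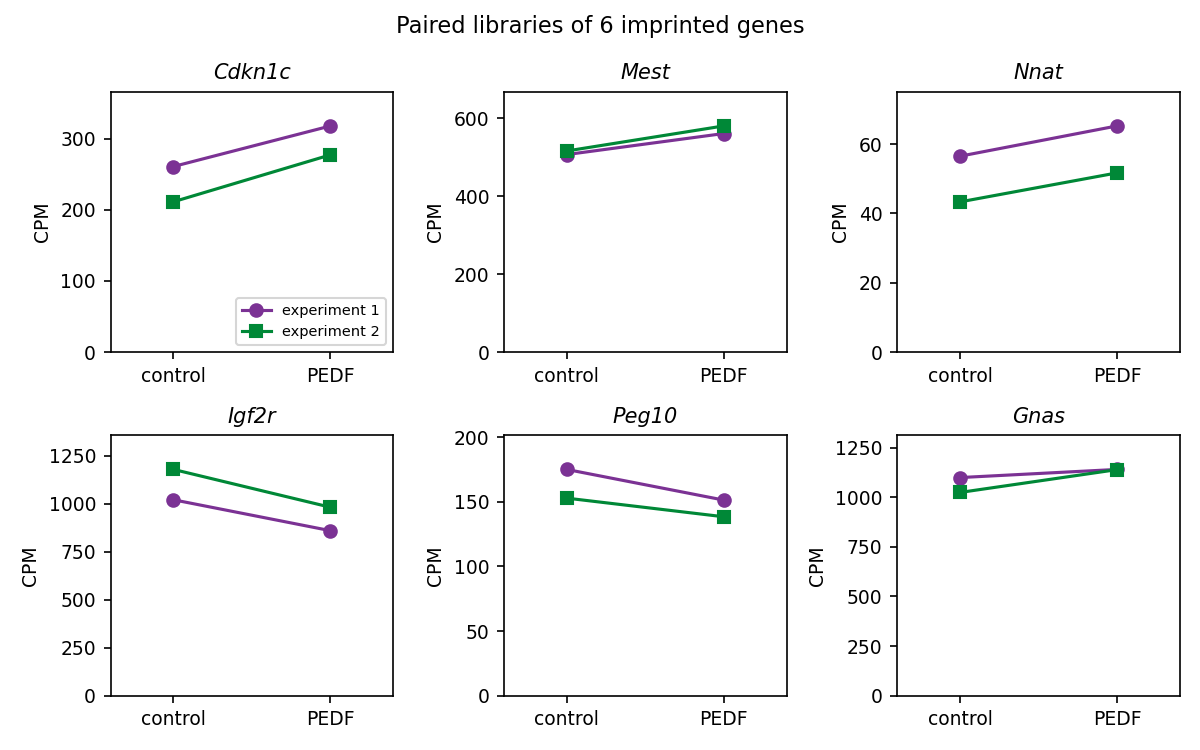
CPM of 6 imprinted genes in control and PEDF libraries, with a line joining the libraries of an experiment (purple circles, experiment 1, green squares, experiment 2) and axes starting at 0. Cdkn1c, Mest, Nnat and Gnas were higher and Igf2r and Peg10 lower with PEDF in both experiments. With treatment as a term, the experiments differed in level for Cdkn1c, Nnat, Igf2r and Peg10.

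H19 and Igf2 share an insulator and enhancers at the distal end of chromosome 7. H19 (142575529 to 142578143, minus strand) was at 10670 and 9675 CPM in control and 11030 and 10200 CPM with PEDF. The groups overlapped, and the log2 fold change was 0.06 ± 0.09 (adjusted p = 0.913 without and 0.43 with the block in edgeR), with a 95% interval from -0.12 to 0.24. Igf2 (142650766 to 142666816, minus strand) was at 241 and 221 CPM in control and 229 and 196 CPM with PEDF. It was lower with PEDF in both experiments (-0.07 and -0.17) and did not pass (-0.12 ± 0.08, adjusted p = 0.792 without and 0.152 with the block in edgeR). With a library left out its log2 fold change lay between -0.24 (without PEDF replicate 1) and -0.01 (without PEDF replicate 2). The TPM of H19 was 102 to 121 times that of Igf2. The Igf2 level leaves out reads, since 62.8% of its exon bases are shared on the same strand with Gm49394, which held 758 counts beside 14548 for Igf2, and reads in the shared bases could not be given to either gene. Small annotated genes on the opposite strand inside H19 exons, Gm27483 and Gm27786, held 14.6% to 15.2% and 12.1% to 12.9% as many counts as H19 in each library. Igf2os, opposite Igf2, held 47.8% to 51.3% as many counts as Igf2.

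H19, Igf2 and Mest host microRNAs, and their mature sequences are shown because the hosts are among the abundant genes while the libraries do not measure the microRNAs. Sequences are from RefSeq (GRCm38.p6), 5′ to 3′, with the seed, bases 2 to 8, in capitals.
mmu-miR-675-5p: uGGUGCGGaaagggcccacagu
mmu-miR-675-3p: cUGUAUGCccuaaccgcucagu
mmu-miR-483-5p: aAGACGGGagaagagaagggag
mmu-miR-483-3p: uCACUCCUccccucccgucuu
mmu-miR-335-5p: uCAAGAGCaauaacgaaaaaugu
mmu-miR-335-3p: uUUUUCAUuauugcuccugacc
The 6 mature sequences come from 3 genes, and no pair of them shares a seed. Mir675 lies inside an exon of H19 on the same strand and had no count in any library. All of its bases are shared with that exon, so the 0 is not a measure of its level. Mir483, in an intron of Igf2, had 5 and 13 counts in control and 8 and 12 counts with PEDF, and Mir335, in an intron of Mest, had 1 count in all. Of the 5 hosted microRNA genes looked at, 1 was tested and none was called, and Mir296 and Mir298 beside Gnas had 1 and 0 counts.

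Gnas, for the stimulatory G protein alpha subunit and its imprinted variants (chromosome 2, 174284320 to 174346744, plus strand), was at 1099 and 1024 CPM in control and 1140 and 1139 CPM with PEDF. The PEDF libraries were higher and nearly equal. The log2 fold change was 0.10 ± 0.07 (adjusted p = 0.792 without and 0.158 with the block in edgeR), and 0.18 ± 0.04 with an adjusted p of 0.00097 when the length correction was added. Without the block it was 0.05 without control replicate 2 and 0.15 without control replicate 1, and it passed in none of the fits that left out a library. Gm20721, on the opposite strand over 1469 of its exon bases, held 96.6% to 97.9% as many counts as Gnas. How many of the reads on such opposite-strand genes belong to Gnas, H19, Cdkn1c, Mest or Igf2 was not tested, so the TPM of these genes and their order may miss reads. The counts do not separate the biallelic transcript from the imprinted ones.

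Grb10 and Peg3, the adaptor that dampens insulin receptor signalling and a zinc-finger transcription factor, varied little over the libraries. Grb10 (chromosome 11, 11930508 to 12038683, minus strand) was at 1349 and 1319 CPM in control and 1324 and 1357 CPM with PEDF, a 1.03-fold span over all libraries. Its log2 fold change of 0.01 ± 0.07 had a 95% interval from -0.14 to 0.16 in edgeR. Ddc, the aromatic amino acid decarboxylase gene next to it, was at 6.37 and 5.66 CPM in control and 6.24 and 5.95 CPM with PEDF, and its groups overlapped (adjusted p = 0.988 in edgeR). Peg3 (chromosome 7, 6703892 to 6730431, minus strand) was at 702 and 641 CPM in control and 677 and 652 CPM with PEDF, with an interval from -0.17 to 0.14. The paternally expressed Usp29, of the ubiquitin protease family, shares the Peg3 start region and was at 10.8 and 11.4 CPM in control and 12.35 and 11.95 CPM with PEDF. Its groups did not overlap (0.12 ± 0.15, adjusted p = 0.893 in edgeR). The maternally expressed Zim1, a zinc-finger gene of the cluster, was at 60.4 and 55.5 CPM in control and 58.5 and 54.1 CPM with PEDF (-0.04 ± 0.08, adjusted p = 0.942 in edgeR). Peg3 stood at 6.85 to 7.15 times the TPM of Zim1 in every library.

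In the Snrpn region of chromosome 7, Ndn was the most abundant gene. Ndn, for a growth suppressor of the MAGE family, was at 125 and 119 CPM in control and 132 and 128 CPM with PEDF. The groups did not overlap, but the log2 fold change of 0.10 ± 0.07 did not pass (adjusted p = 0.799 without and 0.406 with the block in edgeR). Peg12, of the FRAT family of GSK-binding proteins, had 208 to 278 counts per library. Magel2, a further MAGE gene, had 22 to 32 counts per library. Snrpn, for a protein of the splicing machinery, was at 7.38 and 5.27 CPM in control and 5.21 and 7.69 CPM with PEDF. The ratio was -0.50 in experiment 1 and 0.54 in experiment 2, so the PEDF and control values crossed. Snurf had no count in any library. All of its exon bases are shared on the same strand with Snrpn and Gm38393, so the 0 is not a measure of its level, and it was the only gene of the 35 that was not tested. Snrpn shares 27.3% of its exon bases with Gm38393 in the same way.

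Of the gene pairs that lie within each other, Zrsr1 and Commd1 had estimates of opposite sign, and neither passed the test. The paternally expressed Zrsr1, a splicing factor gene within Commd1, was at 13.6 and 14.5 CPM in control and 12.7 and 14.3 CPM with PEDF (-0.06 ± 0.14, adjusted p = 0.948 in edgeR). The maternally expressed Commd1, of copper metabolism, was at 10.8 and 12.4 CPM in control and 14.0 and 13.2 CPM with PEDF, without overlap (0.23 ± 0.15, adjusted p = 0.775 without and 0.466 with the block in edgeR). With a library left out this lay between 0.13 (without control replicate 1) and 0.33 (without control replicate 2). They share 412 exon bases on opposite strands. The non-coding Peg13, within an intron of Trappc9, was at 26.3 and 24.3 CPM in control and 24.6 and 23.5 CPM with PEDF (-0.07 ± 0.11, adjusted p = 0.922 in edgeR). Trappc9, of vesicle trafficking, was at 35.02 and 33.35 CPM in control and 29.4 and 30.9 CPM with PEDF, without overlap (-0.18 ± 0.09, adjusted p = 0.743 without and 0.319 with the block in edgeR). Plagl1, a paternally expressed transcription factor of growth control, was at 274 and 224 CPM in control and 259 and 225 CPM with PEDF. Its groups overlapped (adjusted p = 0.947 in edgeR). Impact and Nap1l5, a nucleosome assembly protein gene at 2.80 to 3.73 CPM, did not pass either (adjusted p = 0.957 and 0.922 in edgeR).

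The difference between the MEF preparations was set beside that of PEDF. None of the 34 genes passed between experiments without a term for treatment in edgeR, where 0.0567% of all genes did, and 3 had an unadjusted p under 0.05 (Nnat, Plagl1 and Igf2), beside 7.67% of all genes. DESeq2 and limma called none either, with 2 and 0 at an unadjusted p under 0.05, beside 1.8% and 6.58% of all genes. With treatment as a term, 7 of the 34 passed, where 4.49% of all genes did. Cdkn1c, Plagl1, Nnat, Igf2, H19 and Peg10 were lower and Igf2r was higher in experiment 2. Nnat differed by -0.36 ± 0.07 (adjusted p = 4.72e-05), Cdkn1c by -0.25 ± 0.05 (adjusted p = 1.66e-05) and Plagl1 by -0.25 ± 0.05 (adjusted p = 2.87e-05) on the log2 scale in edgeR with that term. Igf2r differed by 0.20 ± 0.04 (adjusted p = 0.000172), Igf2 by -0.18 ± 0.05 (adjusted p = 0.0104), Peg10 by -0.16 ± 0.05 (adjusted p = 0.0367) and H19 by -0.13 ± 0.04 (adjusted p = 0.0131) in the same fit. Cdkn1c, Igf2r, Nnat and Peg10 were thus called in both comparisons, each fitted with the other factor as a term. Sums of cell type markers also differed between the preparations. The 6 skeletal muscle markers summed to 433 and 489 TPM in experiment 1 and 540 and 614 TPM in experiment 2, and Myh3, a muscle myosin, was higher in experiment 2 (0.43, adjusted p = 0.0319 in edgeR without a treatment term). The 6 epithelial markers summed to 90.8 and 86.4 TPM in experiment 1 and 72.5 and 73.9 TPM in experiment 2. The macrophage markers summed to 223 and 226 TPM in experiment 1 and 135 and 189 TPM in experiment 2, and the fibroblast markers to 14470 and 13030 TPM and to 17340 and 14810 TPM. Their part in these differences was not tested. Both libraries of experiment 2 lay below both of experiment 1 for 11 of the 34, beside 18.4% of all genes, 8 of them paternally expressed. They lay above for 3 (Tfpi2, Impact and Zrsr1), beside 19.1% of all genes. The median log2 difference was -0.09 for paternally and -0.04 for maternally expressed genes, beside 0 over all genes. Fits with a library left out and no treatment term leave 1 library in a group, so the PEDF difference enters that between experiments. In these fits the difference ranged from -0.46 to -0.06 for Cdkn1c and from 0.06 to 0.33 for Igf2r. The smallest were those without control replicate 2, followed by -0.10 and 0.08 without PEDF replicate 1. Peg10 ranged from -0.27 (without PEDF replicate 1) to -0.06 (without control replicate 1), Igf2 from -0.26 (without control replicate 2) to -0.10 (without PEDF replicate 2), and Nnat from -0.49 to -0.24.

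Genes that set, keep or remove imprinting marks were measured as a list of 22, of which 19 were tested. None passed without the block, and with it 2 passed, both lower with PEDF, beside 3.75% of all genes. These were Zfp57 and Zfp445, zinc-finger proteins that bind the methylated control regions and hold their methylation in the early embryo. Zfp57 was at 55.2 and 66.8 CPM in control and 43.7 and 50.9 CPM with PEDF. The groups did not overlap, and the log2 fold change with the block was -0.37 ± 0.07 (adjusted p = 2.85e-05 in edgeR, against 0.626 without the block). Zfp445 was at 70.0 and 76.1 CPM in control and 58.7 and 61.9 CPM with PEDF, again without overlap (-0.28 ± 0.06, adjusted p = 0.0015 in edgeR with the block and 0.695 without). Both passed with the length correction as well. Of the 19, 7 were lower with PEDF in both experiments (28.8% of all genes), 4 were higher in both (30.1% of all genes) and 8 were neither. The cofactor Trim28 (log2 fold change 0.02), the maintenance methyltransferase Dnmt1 (-0.13, adjusted p = 0.126 in edgeR with the block), its partner Uhrf1 (-0.05) and the insulator protein gene Ctcf (-0.04) did not pass. Dnmt3l, Dppa3 and Nlrp2, which act in germ cells, oocytes or the early embryo, had too few counts to be tested.

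**Figure D4:**
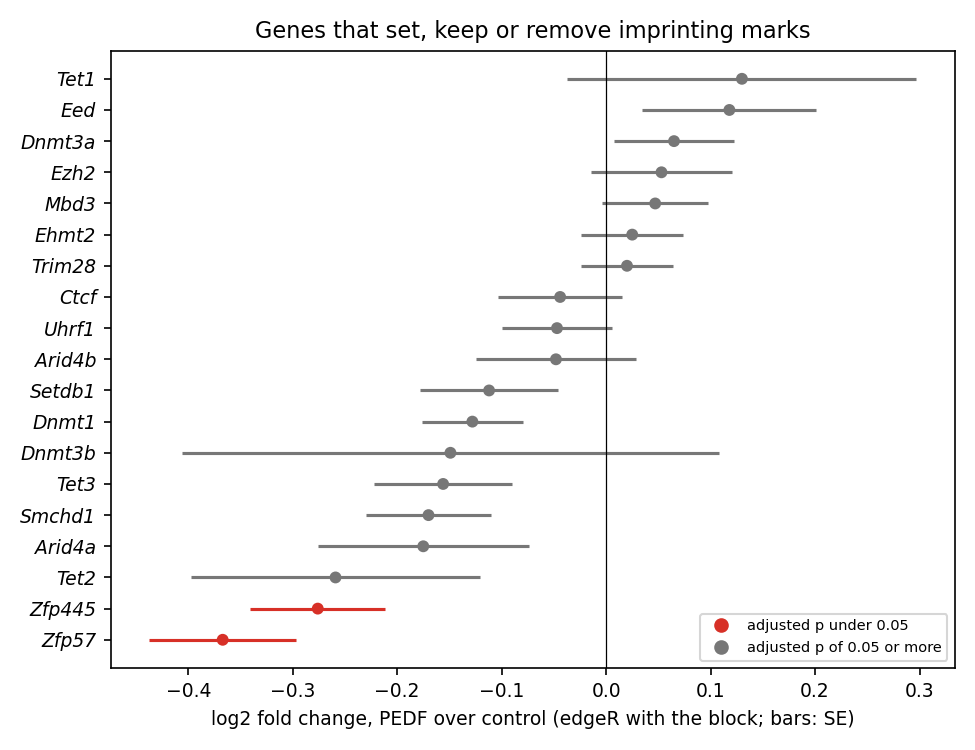
Log2 fold change, PEDF over control, of the 19 tested genes of the imprint maintenance list, from edgeR with the experiment as a block. Points are estimates, bars their SE, and red marks an adjusted p under 0.05. Zfp57 (-0.37) and Zfp445 (-0.28) are the lowest of the list and the only ones in red.

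Neighbours of the clusters and other imprinted genes were looked at in the same way. Of 30 neighbours that lie in or beside the clusters, 29 were in the table and 22 were tested. None passed without the block, and with it, where 3.75% of all genes passed, 1 was higher (Copg2, beside Mest) and 1 lower (Ago2, of RNA silencing, beside Trappc9, -0.21 ± 0.05, adjusted p = 0.00349 in edgeR). With the length correction, where 2.21% of all genes passed, Copg2 kept its call, Ago2 did not pass (-0.11, adjusted p = 0.326) and Ube3a, a ubiquitin ligase gene next to Snrpn, passed (0.22, adjusted p = 0.00899). Kcnq1, which contains Kcnq1ot1, had 8 counts in all. Herc3, which contains Nap1l5, was at 12.7 and 14.1 CPM in control and 11.1 and 9.54 CPM with PEDF (-0.38 ± 0.14, adjusted p = 0.109 with the block in edgeR). Of 14 further imprinted genes, 13 were tested and none passed without the block. With it 2 passed, beside the same 3.75% of all genes. Dcn, for the matrix proteoglycan decorin, was higher (91.0 and 67.1 CPM in control, 107 and 92.3 CPM with PEDF, 0.35 ± 0.06, adjusted p = 1.15e-06 in edgeR). Zdbf2 was lower (26.8 and 30.4 CPM in control, 22.1 and 23.9 CPM with PEDF, -0.31 ± 0.10, adjusted p = 0.0421 in edgeR). With the length correction Dcn passed and Zdbf2 did not (-0.22, adjusted p = 0.294). Dcn is also among the fibroblast markers above, and is known as imprinted in the placenta.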

How the data were processed

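PolyA RNA of MEFs was made into directional paired-end libraries (2 control, 2 PEDF). The authors trimmed the reads (Trimmomatic 0.38, after FastQC 0.11.7), aligned them to mm10 (HISAT2 2.1.0, SAMtools 1.9) and counted them per gene (featureCounts 1.6.3), per the submitters' processing notes. Neither the annotation nor the strand setting is given in the sources used here. The authors deposited raw counts per gene, which were tested, and TPM values summing to 1000000 per library, which were used for levels between genes. Of the 55487 genes, 54784 had the coordinates of GENCODE M21 (GRCm38), from which exon overlaps were taken.

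Counts were tested in R 4.3.3 with edgeR 4.0.16 (TMM factors, quasi-likelihood F test with robust dispersion) over 19384 genes (10 or more counts summed over the libraries), with Benjamini-Hochberg adjustment over all of them and no covariate, as the paper names none. SEs came from the log2 fold change and its F statistic. Log2 ratios within an experiment used CPM with a prior count of 0.5. The length correction removed from each library a natural spline (5 degrees of freedom) of its log2 ratio on log gene length. The submitters' design text was read as giving each experiment its own embryos, so that the replicate number pairs the libraries. Across the 10691 genes whose mean log2 CPM exceeded 3, the differences between experiments in control and in PEDF libraries had a correlation of 0.425, and genes are no independent replicates. Blocked values therefore stand beside the results. Alternatives were DESeq2 1.42.0, RLE factors, no filter on low counts (at least 1 count), filterByExpr, limma 3.58.1 on log2(TPM + 1) for genes with a mean TPM above 0.1, each library left out, the replicate block in edgeR and DESeq2, and treatment as a term between experiments. The functions were tested on simulated data.

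The 35 genes, their classes and the lists (cluster neighbours, imprint maintenance, hosted microRNAs, further imprinted genes, cell type markers) were chosen with earlier results of these data known. Full values were given for genes called with or without the block or between experiments, the 5 of highest mean TPM in each class, and those of 8 listed control regions with oppositely expressed genes, with Snrpn and Gnas. The others were given more briefly. Start windows and mature microRNAs are from RefSeq (GRCm38.p6).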

Additional observations from a re-analysis of the deposited data

Results flagged for a closer look

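For 11 of the 34 imprinted genes the log2 ratio of PEDF over control had opposite signs in experiments 1 and 2. The difference between the experiments was not tested, since each ratio rests on 1 library a side. As the ratio in experiment 2 minus that in experiment 1, it was -2.62 for Ascl2 (1.19 and -1.43, 16 counts in all), 1.24 for Phlda2 (-1.17 and 0.08, 72 counts), 1.07 for Slc22a18 (-0.16 and 0.91, 66 counts) and 1.04 for Snrpn (-0.50 and 0.54, 421 counts). Snrpn was counted with 109 and 94 reads in control and 81 and 137 reads with PEDF. For Sgce the difference was 0.25, for Cd81 0.16, for Tfpi2 -0.12, for Ddc 0.1, for Plagl1 0.09, for Peg3 0.08 and for Grb10 0.07.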

How the results depend on the processing

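The count of imprinted genes called between PEDF and control was 0 in edgeR without the block, and also with DESeq2, RLE factors, filterByExpr and limma. It was 1 with no filter on low counts (Cdkn1c), 5 with the replicate block, 2 with the replicate block in DESeq2 (Cdkn1c and Igf2r, among 12 with an adjusted p), 3 with the replicate block and the gene length correction, and 0 to 2 with a library left out. Over all genes the count was 1, against 3 with DESeq2, 106 with no filter, 0 with filterByExpr and with limma, 726 with the replicate block, 119 with the replicate block in DESeq2, 428 with the replicate block and length correction, and 2 to 205 with a library left out (205 without control replicate 1). Between experiments, the imprinted genes called were 0, against 1 with no filter (Nnat), 7 with treatment as a term and 0 to 3 with a library left out. Over all genes these were 11, against 139 with no filter, 0 with limma, 870 with treatment as a term and 21 to 480 with a library left out (480 without PEDF replicate 2). The block changed the call of Cdkn1c, Mest, Nnat, Igf2r and Peg10 and no other call among the 34 imprinted genes tested, the further imprinted genes aside. The number of genes with the same direction in both experiments stayed at 23 with a prior count of 5. The median level was 12.44 TPM, and 12.42 TPM when recomputed with GENCODE M21 exon lengths.

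Signs turned in genes that had not passed in the comparison concerned. For PEDF against control, the gene length correction with the replicate block gave 0.004 for Plagl1, 0.081 for Peg3, 0.006 for Zim1 and -0.014 for Snrpn, and limma gave -0.017 for Grb10, -0.003 for Ddc, -0.003 for Sgce and -0.001 for Snrpn. With a library left out, the ranges that crossed 0 were -0.066 to 0.104 for Ddc, -0.011 to 0.024 for Grb10, -0.009 to 0.133 for H19, -0.059 to 0.005 for Impact, -0.081 to 0.051 for Peg3, -0.183 to 0.108 for Plagl1, -0.137 to 0.178 for Sgce, -0.27 to 0.298 for Snrpn, -0.117 to 0.031 for Tfpi2, -0.101 to 0.019 for Zim1 and -0.145 to 0.023 for Zrsr1. Between experiments, limma gave 0.041 for Cd81, 0.021 for Peg12, 0.003 for Gnas and 0.051 for Trappc9, and no filter gave 0.001 for Trappc9. With a library left out, the ranges were -0.066 to 0.435 for Airn, -0.09 to 0.06 for Cd81, -0.123 to 0.25 for Commd1, -0.132 to 0.025 for Gnas, -0.022 to 0.022 for Grb10, -0.449 to 0.417 for Kcnq1ot1, -0.052 to 0.12 for Mest, -0.209 to 0.14 for Peg12, -0.645 to 0.548 for Phlda2, -0.372 to 0.11 for Ppp1r9a, -0.603 to 0.332 for Slc22a18, -0.257 to 0.314 for Snrpn, -0.125 to 0.129 for Trappc9 and -0.078 to 0.109 for Usp29. Leaving out a library leaves 1 in its group, which is then assumed to vary like the others. The causes of these changes were not tested. With 2 libraries a group, depth limits the genes with few counts, and the SE was 0.386 or more on the log2 scale for Magel2, Phlda2, Slc22a18 and Ascl2.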
